A study of Mus musculus with 4 samples.

Results

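Phosphatidylcholine and phosphatidylethanolamine are the most abundant phospholipids of mammalian membranes, and 10 transcripts for enzymes that build them were examined in cultured T cells: Chka, Chkb, Etnk1, Pcyt1a, Pcyt2, Chpt1, Cept1, Selenoi, Pemt and Pisd. Of these, 9 were found by symbol in the deposited table of 34745 genes, and Selenoi was found by its identifier, under its older symbol Ept1. RNA was sequenced from 4 cultures of naive CD4+ T cells. The cells came from C57BL/6 spleen and were kept for 3 days under conditions that drive regulatory T (Treg) cell differentiation. Libraries 22 and 24 carried the genotype label Setd2-CD4 cre, and libraries 13 and 15 the label wild type. Setd2 places trimethylation on lysine 36 of histone H3. A CD4-driven Cre recombinase acts in developing thymocytes, so progeny other than CD4 cells carry its deletions as well. The labels give neither the floxed allele, nor the age of the mice, nor whether cells were pooled or each library came from its own animal, so each p-value rests on a spread between libraries that could be technical only. The series title names autoimmunity and phospholipid remodelling by Lpcat4, and the enzymes examined here supply the phospholipids that such remodelling acts on.

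Most phosphatidylcholine and phosphatidylethanolamine in cells is made by parallel routes first described by Kennedy. Choline or ethanolamine is phosphorylated by a kinase, activated with CTP by a cytidylyl transferase, and transferred to diacylglycerol by a phosphotransferase. The cytidylyl transferase step sets the pace of each route in most cells. Phosphatidylethanolamine also arises in mitochondria, where Pisd decarboxylates phosphatidylserine, and liver can methylate phosphatidylethanolamine to phosphatidylcholine with Pemt. T cells that leave quiescence and divide need new membrane, and so draw on these routes.

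Library totals ranged from 14599957 to 16030869 counts. CPM scales each count by the normalised size of its library, and 3 counts equalled 0.184 to 0.201 CPM. Total Setd2 transcript did not differ detectably, at 137 and 113 CPM in knockout-labelled 22 and 24, against 137 and 146 CPM in wild type 13 and 15 (log2 fold change -0.17, edgeR adjusted p = 0.436). The labels do not name the deleted exons, and a count over the whole gene may include the exons that remain, so "knockout-labelled" is used throughout. The 2 groups did differ widely. By edgeR's quasi-likelihood test, 10.1% of 13279 genes tested passed an adjusted p of 0.05, among them Foxp3, which encodes the lineage factor of Treg cells, at 31.9 and 75.8 CPM in knockout-labelled 22 and 24, against 242 and 247 CPM in wild type 13 and 15 (adjusted p = 0.0233). Knockout-labelled 22 and 24 differed from each other more than the wild-type pair did, with a median absolute log2 ratio of 0.222, against 0.104 between wild type 13 and 15, over 10046 genes with a mean of 100 or more counts.

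Of the 10 synthesis enzymes 0 were higher and 0 lower past this threshold by edgeR, against 10.1% of all genes tested (5.53% higher and 4.59% lower), and all 10 passed the filter on low counts. A count of 0 among 10 genes is too small to set the enzymes apart from that background. At an unadjusted p of 0.05, 2 enzymes passed, Chpt1 and Selenoi, against 31.6% of all genes tested. DESeq2, limma-voom and limma on log2 FPKM gave 0 adjusted calls each among the enzymes. At the unadjusted level each gave Selenoi alone, where 18.4%, 31.7% and 31.1% of all genes passed, in the same order. The CPM of the groups did not overlap for 5 enzymes (4 lower and 1 higher in the knockout-labelled libraries), where 63.8% of all genes tested had groups that did not overlap. The median log2 fold change was -0.06 over the 10 enzymes and -0.0013 over all genes tested.

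**Figure D1:**
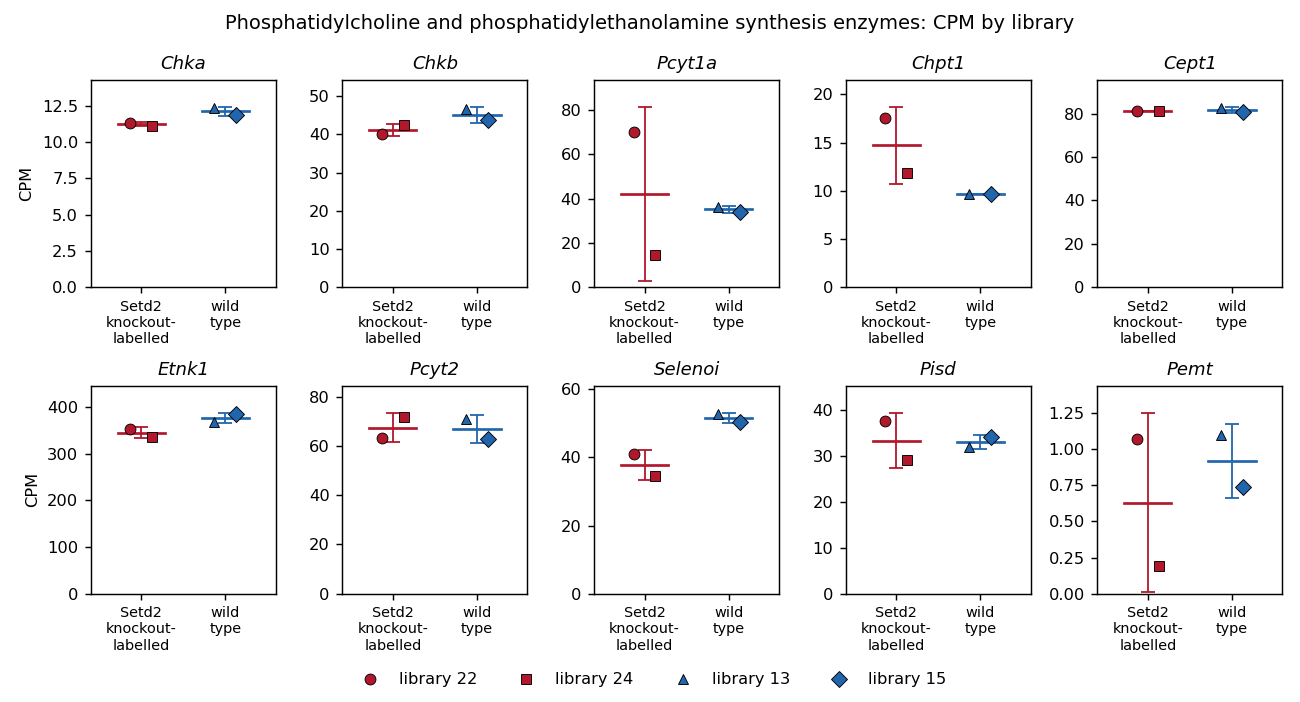
CPM of each of the 10 enzyme transcripts in knockout-labelled libraries 22 and 24 (red) and wild-type libraries 13 and 15 (blue). Horizontal bars are group means and whiskers are SD with n = 2. The knockout-labelled pair lies on both sides of wild type for Pcyt1a (69.9 and 14.4 CPM), above it for Chpt1 and below it for Selenoi.

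For 6 enzymes (Chka, Chkb, Etnk1, Pcyt2, Cept1 and Pisd) the data were precise enough to limit the size of any difference in the count. The counts of Chkb, Cept1 and Pisd may hold reads of other genes, as described below, so their intervals bound the count and not the enzyme's transcript alone. The 95% interval of their fold change lay between 0.690 and 1.33, which leaves out a change of 1.5-fold in either direction under the spread that edgeR estimated. The other 4 had wider intervals or intervals that lay away from 1.

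The kinases open both routes, and neither choline kinase passed the threshold. Chka, which phosphorylates choline and at a lower rate ethanolamine, measured 11.3 and 11.1 CPM in knockout-labelled 22 and 24, against 12.3 and 11.9 CPM in wild type 13 and 15 (log2 fold change -0.11, SE 0.18, edgeR adjusted p = 0.703). Both knockout-labelled values lay just below both wild-type values. Chkb, its paralog, measured 40.1 and 42.3 CPM in knockout-labelled 22 and 24, against 46.6 and 43.7 CPM in wild type 13 and 15 (log2 fold change -0.13, SE 0.13, edgeR adjusted p = 0.507). Both knockout-labelled values were again the lower ones, within a 95% interval of 0.742 to 1.12 for the fold. In the deposited table the span of Chkb runs to the far end of Cpt1b, its downstream neighbour that encodes a carnitine palmitoyltransferase, so the Chkb count may hold reads of Cpt1b or of read-through transcripts. Of the 50-base windows of its transcripts, 43.7% occur in another gene, led by the read-through model Gm44502, which shares 1552 exon bases with it on the same strand. The interval for Chkb bounds that mixed count. Cpt1b itself was counted 1 and 71 times in knockout-labelled 22 and 24, against 113 and 77 times in wild type 13 and 15 (edgeR adjusted p = 0.375).

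Etnk1, the ethanolamine kinase, had the highest count of the 10 transcripts in every library. It measured 353 and 337 CPM in knockout-labelled 22 and 24, against 369 and 384 CPM in wild type 13 and 15. The knockout-labelled values did not reach the wild-type ones, and the difference was small (log2 fold change -0.13, SE 0.11, edgeR adjusted p = 0.46). Its isoenzyme Etnk2 was below the filter, with 13 and 6 counts in knockout-labelled 22 and 24 and 2 and 4 counts in wild type 13 and 15.

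Pcyt1a, the choline cytidylyl transferase, varied most among the enzymes with a mean above 1 CPM, and it did so within the knockout-labelled pair. It measured 69.9 and 14.4 CPM in knockout-labelled 22 and 24, against 36.2 and 34.1 CPM in wild type 13 and 15. As counts these are 1044 and 226 in the knockout-labelled libraries and 590 and 508 in wild type. Knockout-labelled 22 stood at 199% of the wild-type mean and knockout-labelled 24 at 41.1%, while the wild-type libraries lay within 3% of their mean. With all 4 libraries the log2 fold change was 0.26 (SE 0.61, edgeR adjusted p = 0.797), with a 95% interval of 0.439 to 3.27 for the fold. Without knockout-labelled 24 the gene was called higher (log2 fold change 0.99, adjusted p = 0.00502), and without knockout-labelled 22 it was called lower (log2 fold change -1.27, adjusted p = 0.0144). In those fits 30.2% and 13.8% of all genes were called. The direction for Pcyt1a rests on which knockout-labelled library is kept.

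Among the 10046 genes with a mean of 100 or more counts, 21 others had a ratio between knockout-labelled 22 and 24 as far from 1 as that of Pcyt1a, in either direction. Over all genes tested, 49.0% were higher in knockout-labelled 22 than in 24. The neighbour Tctex1d2, which ends just upstream, had no such gap. It measured 5.09 and 5.17 CPM in knockout-labelled 22 and 24, against 3.31 and 3.22 CPM in wild type 13 and 15. Slc51a, which overlaps the end of Pcyt1a on the other strand, had 0 counts in every library and so shows nothing of a gap. Only 0.201% of the 50-base windows of the Pcyt1a transcripts occurred in transcripts of another gene. The isoenzyme gene Pcyt1b went the other way within the pair, at 7.90 and 12.1 CPM in knockout-labelled 22 and 24, against 9.56 and 9.46 CPM in wild type 13 and 15 (edgeR adjusted p = 0.861). Lpin1, a phosphatidate phosphatase that supplies diacylglycerol, also lay on both sides of wild type. It measured 177 and 69.7 CPM in knockout-labelled 22 and 24, against 117 and 117 CPM in wild type 13 and 15 (edgeR adjusted p = 0.906). Its log2 fold change turned on the library dropped, with 0.60 when 24 was dropped and -0.73 when 22 was. Lpin1 was picked after its values were seen, and 4 libraries are too few to tell a shared pattern from coincidence. The summed level of the CD8 T cell markers Cd8a and Cd8b1, of which 0 of 2 passed the threshold, also differed within the pair, at 182 and 78.4 CPM in knockout-labelled 22 and 24, against 125 and 183 CPM in wild type 13 and 15. The part of CD8 T cells in the Pcyt1a values was not tested.

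The 250 bases before the start of Pcyt1a (RefSeq, GRCm38.p6, chr16:32430671-32430920, plus strand) are shown because its transcript varied most among the enzymes with a mean above 1 CPM. Capitals mark each GGGCGG or CCAAT on either strand.
Pcyt1a promoter: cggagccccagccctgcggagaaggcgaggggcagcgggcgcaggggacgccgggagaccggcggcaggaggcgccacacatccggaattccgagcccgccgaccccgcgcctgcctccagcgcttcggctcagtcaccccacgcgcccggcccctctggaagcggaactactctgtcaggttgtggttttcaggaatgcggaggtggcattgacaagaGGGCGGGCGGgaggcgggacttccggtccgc
GGGCGG, the core of a GC box, occurs 2 times there, and the copies overlap in 2 bases. It occurs on either strand in 32.7% of 32851 mouse promoter windows of that length. CCAAT, found in 33.8% of them, has 0 matches.

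Pcyt2, the ethanolamine cytidylyl transferase, had no gap of that kind. It measured 63.4 and 71.7 CPM in knockout-labelled 22 and 24, against 71.0 and 63.1 CPM in wild type 13 and 15. The ranges of the groups nearly coincided (log2 fold change 0.01, SE 0.14, edgeR adjusted p = 0.966; 95% interval 0.799 to 1.27 for the fold). Of the transcripts for the rate-setting step of each route, that of the ethanolamine route was thus bounded closely and that of the choline route was not.

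Chpt1, Selenoi and Cept1 end the routes. Chpt1 makes phosphatidylcholine, Selenoi makes phosphatidylethanolamine, and Cept1 can make both. All belong to the CDP-alcohol phosphotransferase family, and the coding stretch for its signature motif was found in each of the 3 transcripts by the motif's amino acid spacing. The stretches are shown because these related enzymes gave the highest fitted change, one of the lowest and one of the nearest to 0 among the 10. Capitals mark the codons of the 7 residues that the motif fixes.
Chpt1 (GRCm38, chr10:88489594-88489662, minus strand): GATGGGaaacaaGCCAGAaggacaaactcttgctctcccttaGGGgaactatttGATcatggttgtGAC
Selenoi (GRCm38, chr5:30256086-30256154, plus strand): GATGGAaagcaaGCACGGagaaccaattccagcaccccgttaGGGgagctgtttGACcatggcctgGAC
Cept1 (GRCm38, chr3:106533368-106533436, minus strand): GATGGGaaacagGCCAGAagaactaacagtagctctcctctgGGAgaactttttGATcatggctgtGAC
Each stretch has 69 bases and lies in 1 exon. Chpt1 and Cept1 are identical at 82.6% of them, Selenoi and Chpt1 at 71.0%, and Selenoi and Cept1 at 66.7%. The transcripts can still be told apart by reads. Of their 50-base windows, 2.62% for Chpt1, 0% for Selenoi and 0% for Cept1 occur in transcripts of another gene, and none of the genes leading the Chpt1 matches is one of these enzymes.

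Chpt1 had the highest fitted change of the 10. It measured 17.5 and 11.9 CPM in knockout-labelled 22 and 24, against 9.68 and 9.66 CPM in wild type 13 and 15. Both knockout-labelled values lay above wild type, and they differed from each other by more than the lower one differed from wild type. The log2 fold change was 0.60 (SE 0.24, unadjusted p = 0.0393, edgeR adjusted p = 0.137), which did not pass the threshold. Without knockout-labelled 24 the log2 fold change was 0.85, and without knockout-labelled 22 it was 0.31. Its exons share 660 bases with Sycp3 on the other strand, which had 1 count in knockout-labelled 24 and 0 in each of the other libraries.

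Selenoi, a selenoprotein, had the lowest adjusted p of the 10. It measured 40.9 and 34.7 CPM in knockout-labelled 22 and 24, against 52.6 and 50.5 CPM in wild type 13 and 15. Both knockout-labelled values lay below both wild-type values. The log2 fold change was -0.45 (SE 0.14, unadjusted p = 0.0153, edgeR adjusted p = 0.0824), with a 95% interval of 0.582 to 0.921 for the fold, and the threshold was not passed. Without knockout-labelled 22 the log2 fold change was -0.56, and without knockout-labelled 24 it was -0.34. Leaving out library 13 gave a log2 fold change of -0.43, and leaving out library 15 gave -0.49. Among 16 alternatives its log2 fold change stayed between -0.56 and -0.34.

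Cept1 had the narrowest range of the 10 relative to its level, at 81.2 and 81.1 CPM in knockout-labelled 22 and 24, against 82.7 and 80.7 CPM in wild type 13 and 15. The knockout-labelled values fell inside the range of wild type (log2 fold change -0.01, SE 0.12, edgeR adjusted p = 0.966; 95% interval 0.808 to 1.22 for the fold). Its exons share 771 bases with Dennd2d on the other strand, and whether strand was used in counting is not given in the sources used here. Dennd2d fell to 167 and 160 CPM in knockout-labelled 22 and 24, against 250 and 266 CPM in wild type 13 and 15 (log2 fold change -0.66, edgeR adjusted p = 0.0253). The part of Dennd2d reads in the Cept1 count was not tested.

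**Figure D2:**
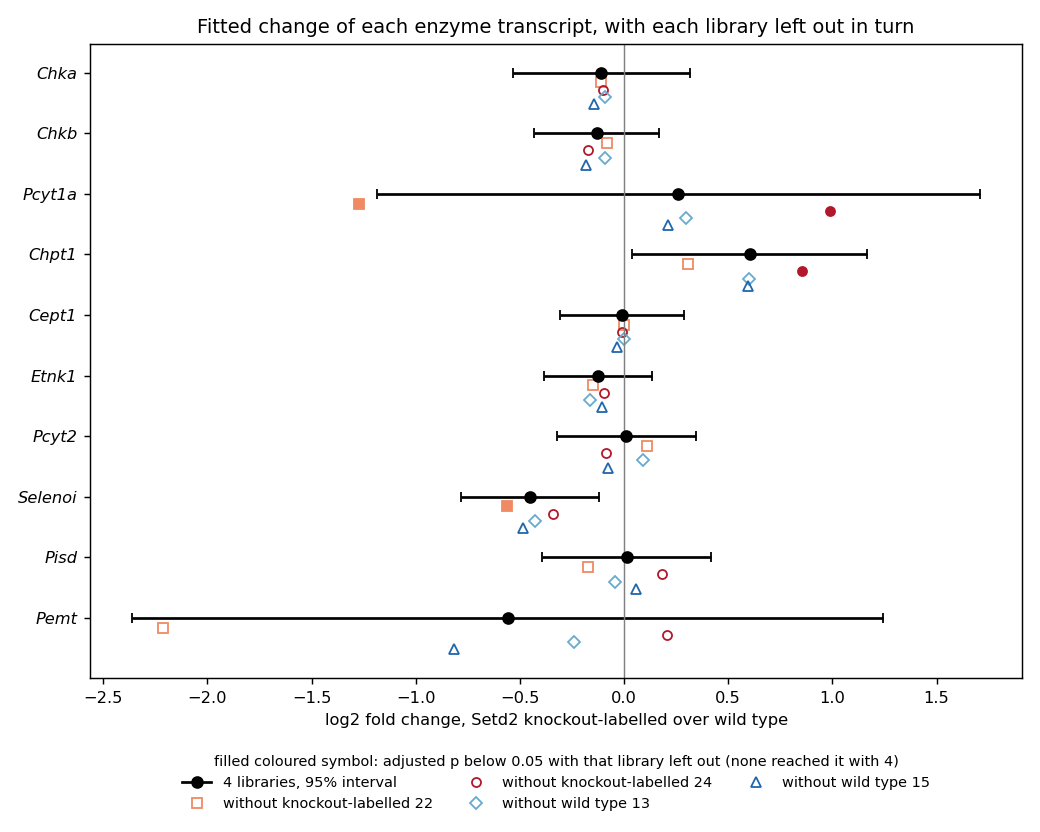
Log2 fold change of each enzyme transcript, knockout-labelled over wild type, with its 95% interval from all 4 libraries (black) and the value with each library left out (coloured; filled where the adjusted p is below 0.05). Pcyt1a lies on opposite sides of 0, at 0.99 without knockout-labelled 24 and at -1.27 without knockout-labelled 22. Every coloured value of Chka, Chkb, Etnk1, Cept1, Pcyt2 and Pisd lies within 0.2 of 0.

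The promoters of Chpt1 and Selenoi are shown for their fitted changes in opposite directions (RefSeq, GRCm38.p6), with capitals as above and only bases before the first annotated exon. They lie at chr10:88504074-88504220 on the minus strand and at chr5:30232331-30232580 on the plus strand.
Chpt1 promoter: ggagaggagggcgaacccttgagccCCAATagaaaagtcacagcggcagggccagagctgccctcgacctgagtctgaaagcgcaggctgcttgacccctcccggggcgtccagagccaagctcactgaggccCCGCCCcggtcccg
Selenoi promoter: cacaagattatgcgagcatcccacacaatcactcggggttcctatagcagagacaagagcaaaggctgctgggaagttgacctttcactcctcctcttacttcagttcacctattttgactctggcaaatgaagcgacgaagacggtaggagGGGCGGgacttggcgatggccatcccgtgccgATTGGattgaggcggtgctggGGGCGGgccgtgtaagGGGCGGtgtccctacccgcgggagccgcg
Both hold both motifs. The 147 bases of Chpt1 have 1 GGGCGG and 1 CCAAT, found in 16.2% and 19.6% of promoter windows of that length, and the 250 bases of Selenoi have 3 and 1. Both motifs are common, and the matches are a description only.

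Transcripts of the phosphatidylserine and methylation routes did not pass the threshold either. Pisd, the mitochondrial phosphatidylserine decarboxylase, measured 37.5 and 29.0 CPM in knockout-labelled 22 and 24, against 31.9 and 34.1 CPM in wild type 13 and 15. Knockout-labelled 22 lay above the wild-type range and knockout-labelled 24 below it (log2 fold change 0.01, SE 0.17, edgeR adjusted p = 0.968; 95% interval 0.762 to 1.33 for the fold). Of the 50-base windows of its transcripts, 18.5% occur in other genes, led by the overlapping Gm20671 and by the related pseudogenes Pisd-ps2 and Pisd-ps1, so its count could be split between them. Pisd-ps1 measured 57.6 and 55.9 CPM in knockout-labelled 22 and 24, against 67.7 and 59.1 CPM in wild type 13 and 15 (edgeR adjusted p = 0.438), and Gm20671 had 2 counts in wild type 15 and 0 in each of the other libraries. Pisd-ps2 had 14 and 21 counts in knockout-labelled 22 and 24, against 14 and 25 counts in wild type 13 and 15.

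Pemt, the phosphatidylethanolamine methyltransferase known chiefly from liver, was barely present, with 16 and 3 counts in knockout-labelled 22 and 24, against 18 and 11 counts in wild type 13 and 15. In CPM these were 1.07 and 0.191, against 1.10 and 0.738. Knockout-labelled 22 matched wild type 13, and knockout-labelled 24 stood at the level of 3 counts. The 95% interval of the fold ran from 0.195 to 2.37 (log2 fold change -0.56, edgeR adjusted p = 0.643), so at this depth only a large difference in Pemt could have been detected.

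Levels can be compared between enzymes only per length. The deposited FPKM imply lengths well above the merged exons of the GENCODE M21 models for most of these genes, from 1.07 times for Etnk1 to 3.40 times for Chkb, and for Pcyt2 an implied 7990 bases exceeds the 7850 bases of the whole gene. CPM per kilobase of merged exon was therefore set beside the FPKM. On that scale Etnk1 and Cept1 led, with means of 24.4 and 26.0 in the knockout-labelled libraries and 26.6 and 26.2 in wild type. Cept1 was the higher of the pair in libraries 22, 24 and 13, and Etnk1 in library 15. Pcyt2 and Chkb followed, with means of 15.5 and 13.5 in the knockout-labelled libraries and 15.4 and 14.7 in wild type. The values of this pair overlapped in wild type and did not overlap in the knockout-labelled libraries. The level of Chkb may be too high on this scale, since a count over the longer deposited span was divided by 3061 bases of GENCODE exon, where its FPKM imply 10412 bases. In wild type Pisd (5.54 and 5.94), Pcyt1a (4.88 and 4.60), Selenoi (4.01 and 3.85), Chpt1 (1.16 and 1.16), Chka (1.02 and 0.988) and Pemt (0.524 and 0.351) came next, in an order without overlap between neighbours. In the knockout-labelled libraries Pcyt1a ranged from 9.43 to 1.95 and so stood above Pisd in library 22 and below Selenoi in library 24. The authors' FPKM kept the first 4 and the last 3 places in wild type but put Selenoi (mean 3.11 FPKM) above Pcyt1a (2.49 FPKM) and Pisd (2.33 FPKM). By either measure the transcripts of Chkb exceeded those of Chka, and those of Cept1 exceeded those of Chpt1, in all 4 libraries.

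**Figure D3:**
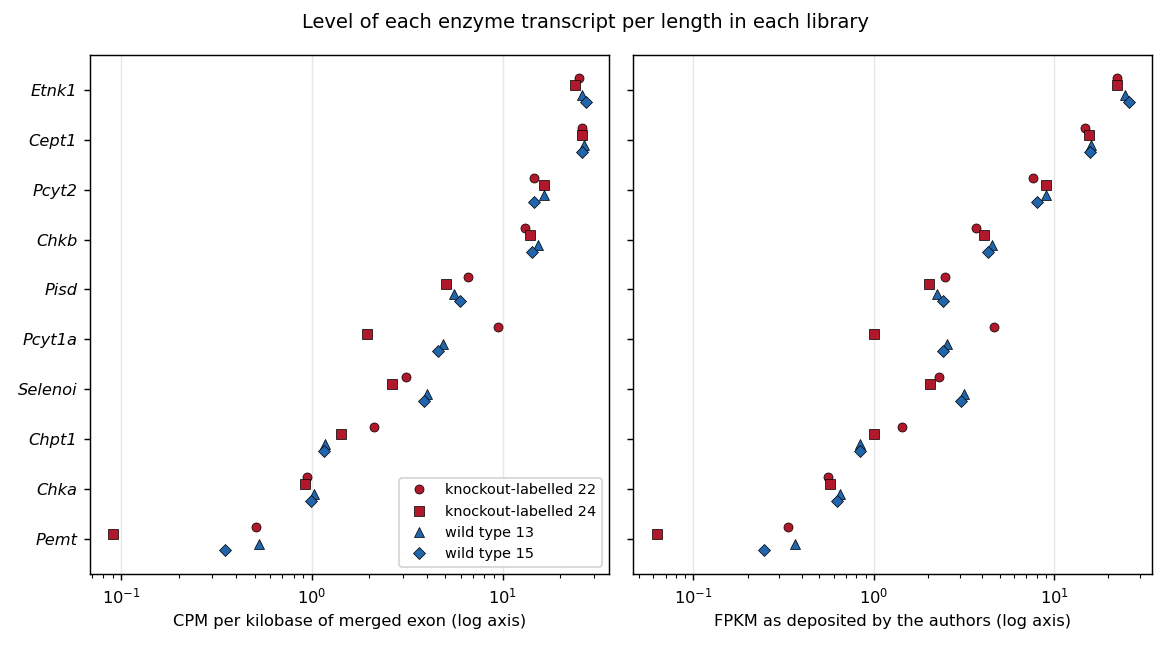
Level of each enzyme transcript in each library on log axes, as CPM per kilobase of merged GENCODE M21 exon (left) and as the authors' FPKM (right), ordered by the wild-type mean on the left. Etnk1 and Cept1 lead and Pemt is lowest on both scales, and the 2 red symbols of Pcyt1a lie farther apart than those of any gene but Pemt.

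In lists of genes around these enzymes 1 higher and 4 lower of 51 tested genes passed the threshold, all outside the 10. That is 9.8% of them, close to the 10.1% of all genes tested, so the number of calls is no result about these lists. They were written with earlier results of these data known. Isoenzymes, pseudogenes and phosphatidylserine synthases had 0 calls among 5 tested members (median log2 fold change -0.08), and the lowest adjusted p was that of Ptdss2, which makes phosphatidylserine from phosphatidylethanolamine (log2 fold change 0.26, edgeR adjusted p = 0.302). Choline and ethanolamine transporters had 0 calls among 4 tested of 11, with a median of -0.02. Slc44a2, a choline transporter-like protein, was the most abundant, at 360 and 385 CPM in knockout-labelled 22 and 24, against 466 and 473 CPM in wild type 13 and 15 (log2 fold change -0.34, edgeR adjusted p = 0.0908).

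The list of methyl donor supply, drawn around S-adenosylmethionine, had 0 higher and 2 lower of 7 tested, where 4.59% of all genes tested were lower. Its median log2 fold change was -0.31, and -0.0013 over all genes tested. Not every gene of the list makes the donor. Mat2a (log2 fold change -0.82, edgeR adjusted p = 0.174) and Mat2b (0.45, edgeR adjusted p = 0.0676) were not called and were fitted in opposite directions. Ahcyl2, a relative of the hydrolase for S-adenosylhomocysteine, fell to 49.9 and 62.4 CPM in knockout-labelled 22 and 24, against 227 and 130 CPM in wild type 13 and 15 (log2 fold change -1.67, SE 0.27, edgeR adjusted p = 0.0219). Its wild-type values differed widely, and the call held with each library left out in turn (adjusted p = 0.00452 to 0.0461; log2 fold change -2.02 to -1.22). Mtrr, which reactivates methionine synthase, fell to 18.1 and 16.3 CPM in knockout-labelled 22 and 24, against 30.0 and 35.6 CPM in wild type 13 and 15 (log2 fold change -0.93, edgeR adjusted p = 0.0267). With library 13 left out its log2 fold change was -1.06 (adjusted p = 0.0650), and with 15 left out it was -0.81 (adjusted p = 0.188), in fits that called 2.33% and 1.37% of all genes.

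Genes that supply phosphatidic acid and diacylglycerol, the backbone that the phosphotransferases use, had 0 higher and 2 lower of 10 tested (median -0.07). Over all genes tested, 5.53% were called higher and 4.59% lower. Gpam, the mitochondrial glycerol-3-phosphate acyltransferase, fell to 5.96 and 7.66 CPM in knockout-labelled 22 and 24, against 13.7 and 14.1 CPM in wild type 13 and 15 (log2 fold change -1.03, edgeR adjusted p = 0.0332). With library 13 or 15 left out its log2 fold change was -1.05 or -1.02, and with 22 or 24 left out it was -0.85 or -1.23. Agpat3, an acyltransferase for lysophosphatidic acid, fell to 153 and 178 CPM in knockout-labelled 22 and 24, against 254 and 265 CPM in wild type 13 and 15 (log2 fold change -0.65, edgeR adjusted p = 0.0308). With library 13 or 15 left out its log2 fold change was -0.69 or -0.63, and with 22 or 24 left out it was -0.54 or -0.77. The groups did not overlap for either gene, as for 63.8% of all genes tested.

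Genes that release or reuse the head group had 1 higher and 0 lower of 14 tested, and the list's median log2 fold change was 0.42, with 10 fitted values above 0 and 4 below. Over all genes tested, 5.53% were called higher, 49.9% had a fitted value above 0 and the median was -0.0013. Gpcpd1, which splits glycerophosphocholine and returns choline, rose 2.14-fold to 121 and 108 CPM in knockout-labelled 22 and 24, against 53.3 and 53.6 CPM in wild type 13 and 15 (log2 fold change 1.10, SE 0.13, edgeR adjusted p = 0.0135). With library 13 or 15 left out its log2 fold change was 1.09 or 1.10, and with 22 or 24 left out it was 1.03 or 1.17. The CDP-diacylglycerol branch, which leads to phosphatidylinositol and cardiolipin, had 0 calls among 7 (median 0.12), with the lowest adjusted p at Cds2 (log2 fold change 0.38, edgeR adjusted p = 0.0940). Mitochondrial phosphatidylserine transfer had 0 calls among 4 (median 0.01), with the lowest adjusted p at Prelid2 (log2 fold change 0.31, edgeR adjusted p = 0.288).

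**Figure D4:**
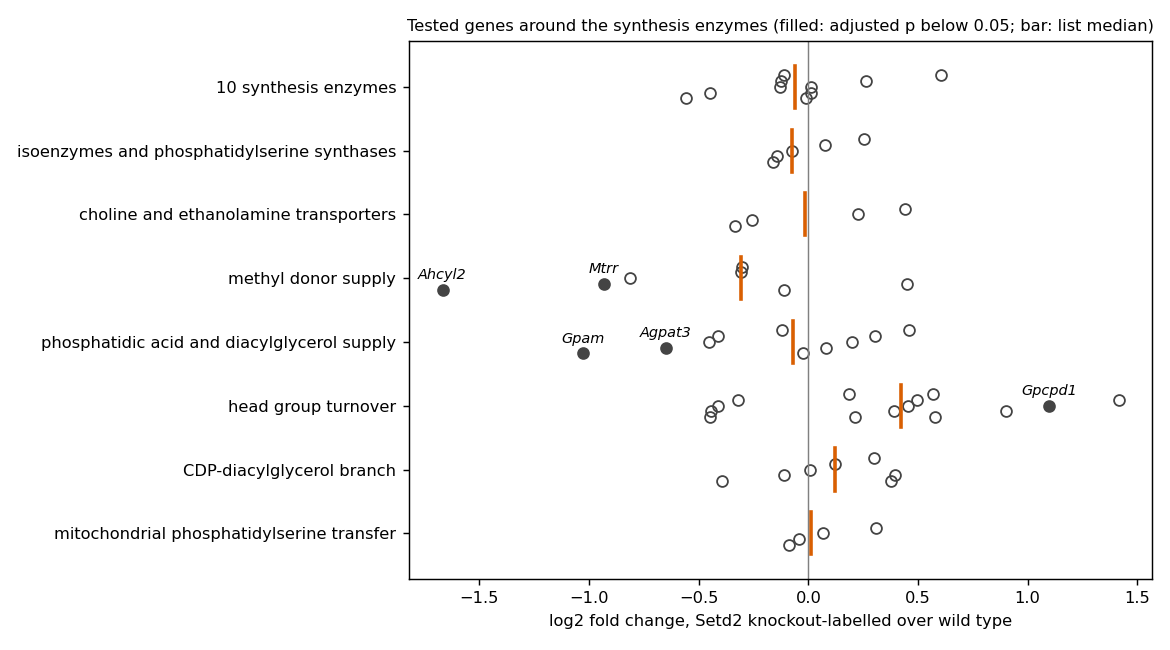
Log2 fold change, knockout-labelled over wild type, of every tested gene of the 10 enzymes and of 7 lists around them. Filled points passed an adjusted p of 0.05 and orange bars are list medians. The enzymes hold no filled point, and the 5 named genes lie in the lists of methyl donor supply, phosphatidic acid and diacylglycerol supply, and head group turnover.

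All 10 enzymes carry the KEGG annotation for glycerophospholipid metabolism in the deposited table. Of the 61 other genes tested with that annotation, 2 were higher and 4 lower, with a median log2 fold change of 0.08. Their share called was 9.84%, close to the 10.1% of all genes tested. These 6 were Gpcpd1 and Plb1 (higher) and Pla2g4f, Lpgat1, Agpat3 and Gpam (lower), named here after their values were seen. Plb1, a phospholipase, averaged 1.17 CPM over the 4 libraries, and Pla2g4f, a phospholipase A2, had a log2 fold change of -2.08 (edgeR adjusted p = 0.00947). Lpcat4, the acyltransferase in the title, measured 20.5 and 29.7 CPM in knockout-labelled 22 and 24, against 42.8 and 38.6 CPM in wild type 13 and 15 (log2 fold change -0.70, edgeR adjusted p = 0.0712).

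Markers of other cells were low or similar for most types. Of the defining T cell markers Cd3e, Cd4 and Trac were high in all 4 libraries and did not pass the threshold. Trac was lower in both knockout-labelled libraries, at 395 and 482 CPM in 22 and 24, against 557 and 517 CPM in wild type 13 and 15 (log2 fold change -0.29, edgeR adjusted p = 0.187). Among 4 B cell markers 0 passed the threshold. Their summed level was 266 and 321 CPM in knockout-labelled 22 and 24, against 215 and 218 CPM in wild type 13 and 15. Of 3 gamma-delta T cell markers 2 were higher (Tcrg-C1 and Cd163l1), where 5.53% of all genes tested were, with a summed level of 26.3 and 34.7 CPM in knockout-labelled 22 and 24, against 10.4 and 10.1 CPM in wild type 13 and 15. The summed markers of macrophages and monocytes, dendritic cells, natural killer cells and erythroid cells were at most 23.8 CPM in any library, with Xcr1 and Siglech at 0 counts in all of them. Of these markers Eomes (natural killer cells; log2 fold change -1.32, edgeR adjusted p = 0.0205) and Flt3 (dendritic cells; log2 fold change -1.61, edgeR adjusted p = 0.0449) were lower. Summed natural killer cell markers stood at 13.0 and 8.62 CPM in knockout-labelled 22 and 24, against 23.8 and 22.3 CPM in wild type 13 and 15. Eomes made up most of these sums, at 10.2 and 7.53 CPM, against 22.7 and 21.7 CPM. The other markers of that list were not fitted lower. Klrb1c stood at 2.21 and 0.894 CPM, against 1.16 and 0.671 CPM (log2 fold change 0.74, edgeR adjusted p = 0.417). Ncr1 had 8 and 3 counts in knockout-labelled 22 and 24, against 0 and 0 in wild type 13 and 15, and was not tested. The part of other cells in the values above was not tested, and in bulk RNA fewer cells of a type and less RNA per cell cannot be told apart.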

How the data were processed

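RNA-seq of 4 libraries was analysed, grouped by the library titles. RNA was taken with TRIzol and read on an Illumina HiSeq, per the labels' protocols. The tools named are Bowtie2 and RSEM and the build is GRCm38.p6 (mm10), per the submitters' processing notes. For versions, options, annotation and strand use, the sources used here are silent. The deposited table gives whole-number counts and the authors' FPKM for each library, and 0 sample columns were left unused. The length that counts and FPKM imply differed between libraries by more than 0.01% in 0 of 10430 genes checked.

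The test was that of edgeR 4.0.16 (R 4.3.3): filterByExpr (minimum count 10, total 15), trimmed mean of M values (factors 0.959 to 1.02), glmQLFit and glmQLFTest, two-sided, no covariate, with Benjamini-Hochberg adjustment over all 13279 genes tested and a threshold of 0.05. The SE of a log2 fold change is its size over the square root of F, and 95% intervals use the moderated degrees of freedom. edgeR's biological coefficient of variation came to 0.157. For a single gene, an exact test of 2 against 2 libraries cannot go below p = 0.333. Replicates differed by more than counting noise (chi-square per degree of freedom 30.6 for libraries 22 and 24 and 9.90 for 13 and 15). Floors of 3 counts cover counting error only. On simulated counts for this comparison (13083 genes), 67 genes were given a fold of 1.5, 67 a fold of 2 and 66 a fold of 4. The test found 0%, 43.3% and 87.9% of them, and 6.45% of its calls were unchanged genes. Few genes were changed there, against 10.1% of genes tested called in the data. The adjusted threshold was therefore harder to pass in the simulation.

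The 10 enzymes and the lists were chosen with earlier results of these data known. Named genes are the 10 enzymes, Setd2, Lpcat4, Foxp3, the Pisd pseudogenes, genes whose exons overlap an enzyme's, and in each list those past the threshold (up to 4) or else the one with the lowest adjusted p. Other genes beside a result were named after their values were seen. Models and transcripts came from GENCODE M21 (GRCm38), where 9 of the 10 enzymes have the deposited position (Chkb is shorter there), and promoters from RefSeq (GRCm38.p6). Alternatives were other scalings, filters, thresholds and dispersion, DESeq2 1.42.0, limma 3.58.1 (voom, or log2(FPKM + 1) and log2(FPKM + 0.1)), and leaving out each library. Figures used matplotlib 3.10.9.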

Additional observations from a re-analysis of the deposited data

How the results depend on the processing

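With 4 libraries, 0 enzymes passed under any of 12 alternatives in scaling, filter, test or threshold. Leaving out 1 library at a time gave 0 to 2 enzymes higher (2 without knockout-labelled 24, Pcyt1a and Chpt1) and 0 to 2 lower (2 without knockout-labelled 22, Pcyt1a and Selenoi), and it moved the calls over all genes to 120 to 2122 higher and 70 to 2002 lower, from 734 and 610. In the lists around the enzymes it gave 0 to 9 higher and 1 to 8 lower, from 1 and 4. Calls over all genes were 1261 higher and 1088 lower with no filter on low counts, 445 higher with limma on log2(FPKM + 1), 457 higher with log2(FPKM + 0.1), 23 higher and 6 lower at an adjusted p of 0.01, and 85 higher and 35 lower against a minimum fold of 1.5. The last 2 settings left 0 higher and 0 lower genes in the lists around the enzymes, and both are stricter by construction. The split between higher and lower calls was 674 and 771 with library totals as the scaling.

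Fitted values that changed sign belonged to enzymes near 0 or with a wide spread. With upper-quartile scaling the log2 fold change was -0.0167 for Pcyt2 and -0.0222 for Pisd, with library totals -0.0444 and -0.0488, with limma on log2(FPKM + 1) -0.0419 and -0.0378, and with log2(FPKM + 0.1) -0.0465 and -0.0539. Pcyt1a gave -0.16 with limma-voom, -0.0514 with log2(FPKM + 1) and -0.18 with log2(FPKM + 0.1). Cept1 gave 0.0032 among genes with a mean of 5 CPM or more, a filter that removed Pemt. Leaving out 1 library gave ranges of -1.27 to 0.99 for Pcyt1a, -0.0858 to 0.11 for Pcyt2, -0.17 to 0.18 for Pisd, -0.0339 to 0.0013 for Cept1 and -2.22 to 0.21 for Pemt. Chka, Chkb, Etnk1, Chpt1 and Selenoi kept their sign under every alternative. Apart from the left-out libraries, which the values show, the cause was not tested. No paired analysis was possible because the groups share no replicate number. Where a group keeps 1 library, its spread is taken from the other group. In the simulation, where few genes were changed, the test found 0% of changes of 1.5-fold and 43.3% of changes of 2-fold. In the data some changes under a fold of 2 passed, such as that of Agpat3 (log2 fold change -0.65, edgeR adjusted p = 0.0308). How many changes of that size were missed at this depth, with 2 libraries a group, was not tested.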
